A study of Mus musculus with 84 samples.

Results

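Cytochrome P450 genes of families 2 and 3 were followed through 7 tissues of ob/ob and wild-type (WT) mice, with the liver as the main tissue. The members are all rows of the gene count table whose symbol is Cyp2 with 1 further letter and a number, or Cyp3a with a number, and pseudogenes named with -ps were left out. These are 55 of the 49671 genes in the table. The study crossed 2 genotypes with 2 diets and had 3 mice in each group: WT on normal diet (ND), WT on high-fat diet (HFD), ob/ob on ND and ob/ob on HFD. All 12 mice were dissected after 20 weeks, and RNA-seq libraries were made from liver, skeletal muscle, heart, aorta, epididymal fat, hypothalamus and hippocampus, 84 in all. Mice of the ob/ob genotype lack functional leptin, the satiety hormone of fat cells, in all tissues from birth, so they overeat and are obese on either diet. Strain, sex, the composition of the diets, and whether the 20 weeks are age or time on diet are not given in the sources used here. Mice are numbered 1 to 3 within a group, and equal numbers in different groups are different mice.

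Cytochromes P450 are haem enzymes of the endoplasmic reticulum that use electrons from NADPH, handed on by P450 oxidoreductase, to insert oxygen into lipophilic substrates. Families 2 and 3 carry much of the drug and steroid metabolism of the liver, and several members turn arachidonic acid into epoxides. In rodent liver, many members are induced through the nuclear receptors CAR and PXR, and others are made mainly in one sex, through the sex-specific rhythm of growth hormone secretion. The mouse genes lie in clusters of duplicated copies. Of the 55 members, 15 lie on chromosome 7 (among them Cyp2a and Cyp2b), 15 on chromosome 19 (Cyp2c), 8 on chromosome 15 (Cyp2d), 8 on chromosome 4 (Cyp2j), 8 on chromosome 5 (Cyp3a and Cyp2w1) and 1 on chromosome 3 (Cyp2u1).

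The promoters of 4 members show how alike such copies are. These genes were picked by their results: of the first pair Cyp2a4 passed the test between genotypes on ND and Cyp2a5 did not, whereas both genes of the second pair passed. The change of Cyp2a4 was not tested against that of Cyp2a5. The part of the promoters in these results was not tested either. Each window runs 5′ to 3′ from 250 bases before to 50 bases after the RefSeq start of transcription (GRCm38.p6, plus strand), and capitals mark bases that differ between the 2 genes of a pair.
Cyp2a4: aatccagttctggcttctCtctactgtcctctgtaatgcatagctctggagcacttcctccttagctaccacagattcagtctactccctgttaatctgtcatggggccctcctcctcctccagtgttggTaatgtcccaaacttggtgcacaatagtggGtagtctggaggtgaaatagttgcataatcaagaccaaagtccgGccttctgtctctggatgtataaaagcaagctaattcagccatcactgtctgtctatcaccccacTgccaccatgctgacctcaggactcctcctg
Cyp2a5: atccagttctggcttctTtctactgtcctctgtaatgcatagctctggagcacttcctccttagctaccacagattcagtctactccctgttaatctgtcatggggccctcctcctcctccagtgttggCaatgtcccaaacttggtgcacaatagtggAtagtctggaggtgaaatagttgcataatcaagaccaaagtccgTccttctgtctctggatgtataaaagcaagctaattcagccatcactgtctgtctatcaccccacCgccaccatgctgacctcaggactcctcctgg
Cyp2b9: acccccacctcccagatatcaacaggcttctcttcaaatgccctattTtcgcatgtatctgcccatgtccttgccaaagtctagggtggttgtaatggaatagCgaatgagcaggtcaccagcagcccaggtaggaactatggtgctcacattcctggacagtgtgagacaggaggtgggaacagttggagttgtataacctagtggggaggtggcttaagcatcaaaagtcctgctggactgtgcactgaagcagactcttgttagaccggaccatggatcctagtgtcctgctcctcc
Cyp2b13: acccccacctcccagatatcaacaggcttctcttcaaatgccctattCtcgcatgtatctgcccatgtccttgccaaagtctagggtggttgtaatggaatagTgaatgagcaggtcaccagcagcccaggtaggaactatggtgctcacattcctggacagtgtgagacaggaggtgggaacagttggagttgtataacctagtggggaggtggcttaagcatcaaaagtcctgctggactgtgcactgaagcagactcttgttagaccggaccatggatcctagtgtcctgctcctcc
The window of Cyp2a4 is chr7:26306942-26307241 and that of Cyp2a5 is chr7:26835089-26835388. They were identical at 294 of 301 aligned positions (97.7%). The window of Cyp2b9 is chr7:26173159-26173458 and that of Cyp2b13 is chr7:26061245-26061544, and they were identical at 298 of 300 positions (99.3%). The window of Cyp2b10, the remaining Cyp2b gene tested in liver, was 71.7% identical to that of Cyp2b9. Windows were found for 47 of the 55 members (50 windows, as some members have more than 1), and the median identity over the 1081 pairs of members was 47.2%.

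The windows were searched on both strands for 4 motifs that were chosen after the sequences had been read. Cyp2a4 and Cyp2a5 both hold the TATA box TATAAA, CAAAGTCC, which is a core bound by HNF4, and TTGCATAA, which resembles a C/EBP site, and these 3 matches do not overlap each other. Cyp2b9 and Cyp2b13 hold none of them. CAAAGTCC was present in 11 of the 50 windows of members (22%) and in 1.42% of all 32851 windows. TATAAA was present in 48% and 13.6%, TTGCATAA in 10% and 0.743%, and TTCNNNGAA, the STAT5 type of site, in 4% and 8.3%. These are matches of letters, and binding was not measured.

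The copies share transcript sequence as well. Of all 50-base stretches in the transcripts of Cyp2a4, 38.8% also occur in other genes, mostly Cyp2a5. The share was 11.2% for Cyp2b9, 27.3% for Cyp2b13, 20.2% for Cyp2a22 and 60.3% for Cyp2c40, with a median of 8.7% over the members, and 18 of the 55 reached 20%. The counting command gave no option to count reads with several placements and none for strand. Counts of these copies are therefore uncertain, and the exons of 11 members also overlap exons of another gene.

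In livers of WT mice on ND, Cyp2e1, which oxidizes ethanol and acetone, had the highest level per transcript length, 4773 ± 424 CPM per kb (SD, n = 3; CPM is the count scaled to library size, and kb is kilobase of exon). Cyp3a11, the main PXR-inducible drug-metabolizing enzyme, followed at 1599 ± 314 CPM per kb. Cyp2c29 at 1036 ± 214 and Cyp2d9 at 1034 ± 197 CPM per kb did not differ beyond their spread. The next members were Cyp2d26 (592 ± 33.7), Cyp2d10 (522 ± 54), Cyp2f2 (456 ± 70.9) and Cyp3a25 (439 ± 44.3 CPM per kb), where neighbouring levels lay within about the sum of their SDs.

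Members made up 2.71% to 3.37% of all liver counts in WT mice on ND, 2.21% to 2.52% in WT on HFD, 1.76% to 2% in ob/ob on ND and 1.5% to 2.34% in ob/ob on HFD. Every WT library on ND lay above every library of the other groups. Of the 55 members, 41 passed the filter on low counts in liver and were tested. Of the other 14, 7 had 0 counts in all 12 livers.

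Liver libraries held 10860694 to 14004875 counts, and all tissues expressed the marker genes checked for them. The tested members varied most among ob/ob livers on HFD, where mouse 1 had the highest of the 3 values for 31 of the 41 tested members and mouse 2 the lowest for 29. The median coefficient of variation of the members was 27.8% in that group and 11.9% to 19.5% in the others. Over all genes, WT mouse 3 on HFD stood apart from its group: the chi-square per degree of freedom between its counts and those of mice 1 and 2 was 40.2 and 40.05, against 7.73 to 24.8 in the other 10 pairs of livers within groups. Without that liver, 5 members were higher and 8 lower in ob/ob on HFD (5 and 12 with it), and HFD raised 5 and lowered 16 in WT (6 and 16 with it). The labels call the 3 mice of a group separate samples, and p-values measure the spread between them.

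Differences were tested with edgeR's quasi-likelihood test, with p-values adjusted over the 13246 genes tested in liver and a threshold of 0.05. On ND, 8 members were higher and 14 lower in ob/ob than in WT livers, while 19.3% of all tested genes were higher and 17.1% lower. On HFD, 5 members were higher and 12 lower in ob/ob, beside 8.61% and 9.85% of all genes. In WT livers HFD raised 6 members and lowered 16, beside 12% and 9.87% of all genes. In ob/ob livers HFD lowered 5 members and raised 0, beside 0.536% and 0.377% of all genes; at an unadjusted p under 0.05 edgeR had 5 members higher, and DESeq2 called 0. The share of members called lower was 34.1%, 29.3%, 39% and 12.2% in these 4 comparisons, each above the share of all genes. The median log2 difference of the tested members was -0.44, -0.25, -0.29 and -0.26, and that of all tested genes lay between -0.00 and 0.02.

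In bulk tissue, fewer cells of a type and less RNA per cell cannot be told apart. The 10 hepatocyte markers summed to 123994 to 129690 CPM in WT livers on ND, 93106 to 102281 in WT on HFD, 104484 to 112700 in ob/ob on ND and 80062 to 106487 in ob/ob on HFD. The 6 adipocyte markers summed to 25.2 to 36.3, 139 to 156, 256 to 315 and 200.1 to 242 CPM, and the 5 cholangiocyte markers to 10.5 to 17.9, 57.2 to 72.5, 62.6 to 128 and 35.6 to 394 CPM, in the same order. Adipoq, on the adipocyte list, was at 0.095 to 1.04, 0 to 0.193, 0.0713 to 11.8 and 0.0746 to 0.417 CPM. Most of each adipocyte sum thus came from other genes of that list. The 6 stellate cell and fibroblast markers summed to 154 to 203, 263 to 297, 204 to 221 and 249 to 346 CPM, and the 7 endothelial markers to 84 to 128, 133 to 169, 117 to 135 and 108 to 159.6 CPM. No marker of these lists was at 0 in any group. WT livers on ND had the highest hepatocyte sums and the lowest adipocyte, cholangiocyte and stellate cell sums, and their endothelial sums lay below those of WT on HFD. The part of these differences in the results was not tested.

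The largest increases were those of Cyp2b and Cyp2a genes on chromosome 7, which were low in WT livers on ND and high in the other groups. The comparison of genotypes on ND and that of HFD in WT share the 3 WT livers on ND, so their results are not independent of each other. Cyp2b9, a female-predominant steroid hydroxylase, was at 2.5, 1.82 and 4.37 CPM in WT mice 1 to 3 on ND and at 205, 275 and 266 CPM in ob/ob mice on ND. It was at 377, 186 and 146 CPM in WT on HFD and at 214, 22.2 and 254 CPM in ob/ob on HFD. All 9 livers of the other groups lay above the 3 WT livers on ND, and ob/ob mouse 2 on HFD was the lowest of the 9. The difference between genotypes on ND was 6.43 ± 0.81 log2 (SE; 86.4-fold, adjusted p = 5.58e-05), and HFD raised it in WT by 6.36 ± 0.81 (82.2-fold, adjusted p = 0.00022). Between the genotypes on HFD, the difference of -0.53 ± 0.58 did not pass (adjusted p = 0.569).

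Cyp2b13, its near copy and also female-predominant, had 2 counts in the 3 WT livers on ND together. It was at 9.47, 24.9 and 63.4 CPM in ob/ob on ND, 66.6, 10.5 and 8.6 CPM in WT on HFD and 17.8, 0.209 and 7.94 CPM in ob/ob on HFD. Mice within these 3 groups differed widely, and ob/ob mouse 2 on HFD was again the lowest. The 1371 counts in ob/ob on ND correspond to a ratio of 550 to WT on ND, with an exact 95% interval of 152 to 4550, and the 1138 counts in WT on HFD to a ratio of 512 (141 to 4231), where intervals cover counting error only. Both differences passed (adjusted p = 0.00355 and 0.00872). Cyp2b13 passed the filter on low counts only through the other 3 groups, so these tests were not independent of that filter. The fitted difference of 8.71 log2 for HFD in WT was 7.10 without WT mouse 1 on HFD, and that of 8.88 on ND was 7.96 without ob/ob mouse 3.

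Cyp2a4, a female-predominant steroid hydroxylase, was at 1.04, 0.694 and 2.09 CPM in WT on ND and 80.7, 76.8 and 163 CPM in ob/ob on ND. On HFD it was at 16, 6.05 and 3.58 CPM in WT and 35.9, 42.1 and 99.1 CPM in ob/ob. The genotypes did not overlap on either diet. Cyp2a4 was higher in ob/ob by 6.40 ± 0.67 log2 on ND (84.7-fold, adjusted p = 1.32e-05) and by 2.75 ± 0.50 on HFD (adjusted p = 0.00253). The value on HFD was 3.59 without WT mouse 1 and 2.15 without ob/ob mouse 3. HFD raised it in WT by 2.79 ± 0.78 (adjusted p = 0.0219), but the call was lost without WT mouse 1 on HFD, where the value was 1.95, or without WT mouse 1 or 2 on ND (adjusted p from 0.0721 to 0.105).

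Cyp2a5, a coumarin hydroxylase whose promoter is printed beside that of Cyp2a4, was at 496, 299 and 683 CPM in WT on ND and 254, 429 and 384 CPM in ob/ob on ND. It was at 778, 572 and 744 CPM in WT on HFD and 679, 356 and 458 CPM in ob/ob on HFD. The groups overlapped on each diet, and the difference on ND, -0.47 ± 0.29 log2, did not pass (adjusted p = 0.222). Cyp2a22 was at 3.54, 2.34 and 5.13 CPM in WT on ND, 87.3, 112 and 105 CPM in ob/ob on ND, 75, 30.4 and 34.8 CPM in WT on HFD and 55.6, 30.2 and 76.4 CPM in ob/ob on HFD. WT livers on ND were alone at the low level. The difference was 4.80 ± 0.44 log2 between genotypes on ND (27.8-fold, adjusted p = 5.21e-06) and 3.68 ± 0.44 for HFD in WT (12.8-fold, adjusted p = 0.000155).

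Cyp2b10, the classical CAR target of mouse liver, had another pattern. It was at 40.4, 40.8 and 42.9 CPM in WT on ND, 32.3, 34.8 and 53.8 CPM in ob/ob on ND, 40.7, 37.2 and 25.2 CPM in WT on HFD and 18, 11.3 and 7.57 CPM in ob/ob on HFD. The ob/ob livers on HFD lay below all 9 others. HFD changed it by -1.72 ± 0.27 log2 in ob/ob (adjusted p = 0.0136, or 0.0501 when the 2 ob/ob groups were fitted alone), and on HFD the genotypes differed by -1.49 ± 0.27 (adjusted p = 0.00236). On ND the difference of -0.04 ± 0.25 did not pass (adjusted p = 0.924).

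**Figure D1:**
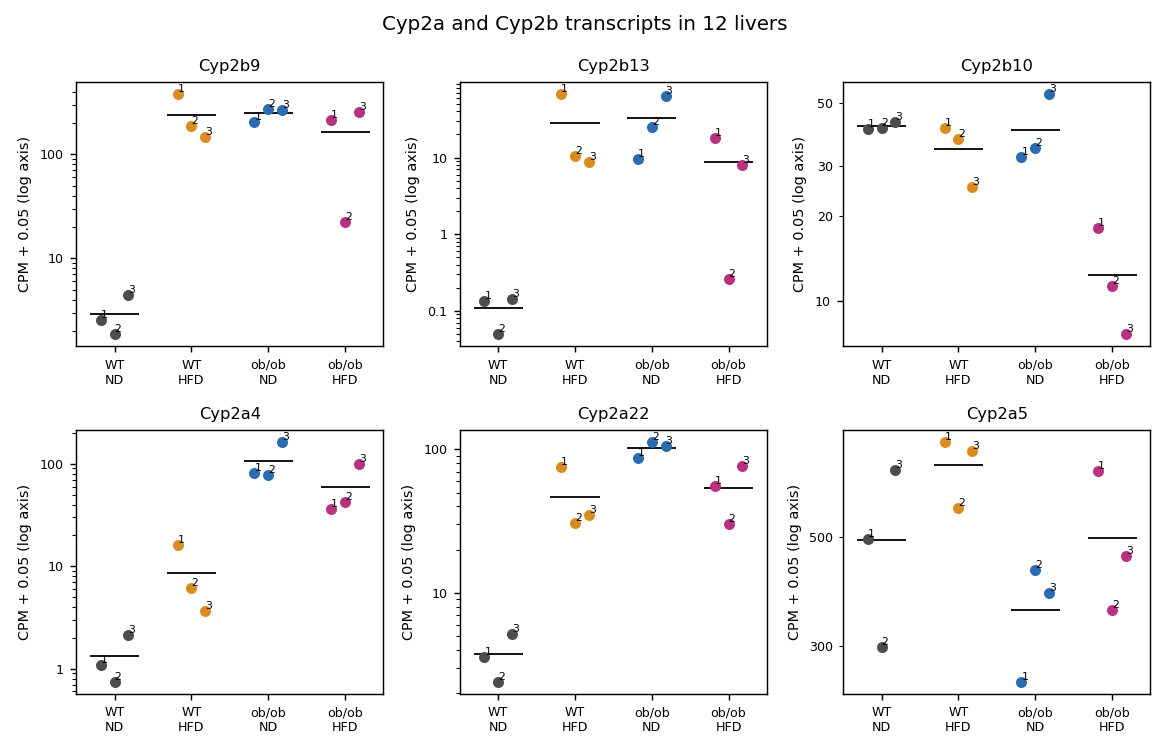
Liver levels of 6 Cyp2a and Cyp2b genes (y axis: CPM plus 0.05, log axis) in the 4 groups (x axis). Each point is a mouse with its number, 3 per group, and lines are group means. Cyp2b9, Cyp2b13, Cyp2a4 and Cyp2a22 are lowest in WT livers on ND, where Cyp2b9 is at 1.82 to 4.37 CPM, while Cyp2b10 is lowest in ob/ob on HFD and the groups overlap for Cyp2a5.

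Of the 10 genes listed as female-predominant in mouse liver, 8 are members and 7 were tested. On ND, 3 were higher in ob/ob (Cyp2b9, Cyp2b13 and Cyp2a4) and 4 did not pass, and the median of the 7 was -0.04 log2. On HFD 1 was higher and 1 lower. HFD in WT divided the list: Cyp2b9, Cyp2b13 and Cyp2a4 rose, and Cyp2c40, Cyp2c69 and Cyp3a16 fell. HFD in ob/ob lowered 3, Cyp2b10, Cyp2c40 and Cyp2c69. Of all tested genes, 19.3% were higher on ND, and 8.61% were higher and 9.85% lower on HFD. HFD raised 12% and lowered 9.87% of them in WT, and lowered 0.536% in ob/ob.

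Cyp2c40, which hydroxylates arachidonic acid, was at 8.38, 6.68 and 5.61 CPM in WT on ND and 1.03, 0.299 and 0.29 CPM in WT on HFD. In ob/ob it was at 5.07, 3.37 and 6.85 CPM on ND and 1.42, 0.348 and 1.27 CPM on HFD. All 6 livers on HFD lay below all 6 on ND. The change with HFD was -3.61 ± 0.48 log2 in WT (adjusted p = 0.0003), or -4.51 without WT mouse 1 on HFD, and -2.33 ± 0.44 in ob/ob (adjusted p = 0.024). Its neighbour Cyp2c69 was at 5.7, 6.25 and 3.99 CPM in WT on ND, 0.366, 0.149 and 0.193 CPM in WT on HFD, 3.16, 0.983 and 3.71 CPM in ob/ob on ND and 0.373, 0.278 and 0.0749 CPM in ob/ob on HFD. The diets again did not overlap. The change was -4.42 ± 0.55 log2 in WT (adjusted p = 0.000203) and -3.38 ± 0.57 in ob/ob (adjusted p = 0.0136). In ob/ob both calls were lost without mouse 2 on HFD, or without mouse 1 or 3 on ND, at adjusted p from 0.0622 to 0.0943 for Cyp2c40 and 0.0546 to 0.0591 for Cyp2c69, and also when the 2 ob/ob groups were fitted alone. These genes share 60.3% and 54.3% of their 50-base stretches with other genes, so they may not be 2 separate measurements. On HFD, Cyp2c69 held 9 counts in the WT livers together and 10 in the ob/ob livers. It passed the filter on low counts only through livers on ND, so its tests of diet were not independent of that filter.

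Cyp3a16 was at 4.06, 3.99 and 0.76 CPM in WT on ND and 0.293, 0.299 and 0.387 CPM in WT on HFD, where all 3 mice were lower. Its change of -3.16 ± 0.87 log2 (adjusted p = 0.0201) was lost without WT mouse 1 or 2 of either diet (adjusted p from 0.0606 to 0.0707). Cyp3a16 held 12 counts in the WT livers on HFD together and passed the filter on low counts only through livers on ND. The test of HFD in WT was therefore not independent of that filter.

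The male-predominant list held Cyp2d9 and Cyp2u1, and both were lower in ob/ob on both diets, beside 17.1% of all tested genes on ND and 9.85% on HFD. Cyp2d9, a testosterone hydroxylase, was at 1911, 1332 and 1876 CPM in WT on ND and 275, 458 and 204 CPM in ob/ob on ND, and on HFD at 879.8, 1051 and 1609.8 CPM in WT and 652, 425 and 512 CPM in ob/ob. The genotypes did not overlap on either diet. The difference was -2.45 ± 0.30 log2 on ND (adjusted p = 4.36e-05) and -1.16 ± 0.29 on HFD (adjusted p = 0.0135), the latter call being lost without WT mouse 3 or ob/ob mouse 2 on HFD (adjusted p from 0.0509 to 0.0579). Cyp2u1, a fatty acid hydroxylase, was at 15.7, 15.4 and 16.8 CPM in WT on ND, 19.3, 16.5 and 29 CPM in WT on HFD, 3.38, 3.72 and 3.71 CPM in ob/ob on ND and 6.64, 5.14 and 6.59 CPM in ob/ob on HFD. All 6 WT livers lay above all 6 ob/ob livers. The difference was -2.15 ± 0.20 log2 on ND (adjusted p = 5.65e-06) and -1.81 ± 0.19 on HFD (adjusted p = 8.27e-05).

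Of the 7 members listed as inducible by CAR or PXR, 4 were lower in ob/ob on ND and 4 on HFD, HFD lowered 4 in WT and 2 in ob/ob, and none was higher in any of these comparisons. The shares of all tested genes called lower were 17.1%, 9.85%, 9.87% and 0.536%, in the same order. Cyp2c29, an epoxygenase of arachidonic acid, was at 3287, 2468 and 3761 CPM in WT on ND, 1008, 942 and 1159 CPM in WT on HFD, 871, 906 and 889 CPM in ob/ob on ND and 635, 203 and 259 CPM in ob/ob on HFD. No 2 groups overlapped, and the order from high to low was WT on ND, WT on HFD, ob/ob on ND, ob/ob on HFD. The genotypes differed by -1.84 ± 0.32 log2 on ND (adjusted p = 0.000689) and by -1.50 ± 0.32 on HFD (adjusted p = 0.00596), the latter -2.17 without ob/ob mouse 1. HFD changed it by -1.61 ± 0.32 in WT (adjusted p = 0.0037), and its change of -1.28 ± 0.32 in ob/ob did not pass (adjusted p = 0.0872).

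Cyp2c54, another epoxygenase, was at 625, 395 and 483 CPM in WT on ND and 37.7, 45.2 and 39.3 CPM in ob/ob on ND. On HFD it was at 76.3, 90.8 and 291 CPM in WT and 62.4, 10.9 and 12.4 CPM in ob/ob. WT mouse 3 stood above its group on HFD, and ob/ob mouse 1 above its own. The genotype difference was -3.62 ± 0.63 log2 on ND (adjusted p = 0.000651). On HFD it was -2.42 ± 0.61 (adjusted p = 0.015), -1.55 without WT mouse 3 (adjusted p = 0.0701) and -3.70 without ob/ob mouse 1, and the call was also lost without ob/ob mouse 3 (adjusted p = 0.0523) and when the 2 HFD groups were fitted alone. For HFD in WT the change of -1.72 ± 0.58 (adjusted p = 0.0494) was lost without any 1 of 8 libraries, namely WT mouse 1 or 2 on HFD and all mice of both ND groups (adjusted p from 0.0638 to 0.151), and in DESeq2, and it was -2.59 without WT mouse 3 on HFD.

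Cyp2c37 was at 779.9, 526 and 639.9 CPM in WT on ND and 66, 90.9 and 69.1 CPM in ob/ob on ND, with a difference of -3.11 ± 0.57 log2 (adjusted p = 0.00101). On HFD it was at 244, 177 and 224 CPM in WT and 199, 18.6 and 59.5 CPM in ob/ob. The groups overlapped on HFD through ob/ob mouse 1, and -1.22 ± 0.54 did not pass (adjusted p = 0.136). Cyp2c50 was at 1302, 1006 and 1227 CPM in WT on ND and 253, 290.2 and 266 CPM in ob/ob on ND, a difference of -2.13 ± 0.43 (adjusted p = 0.00177). On HFD it was at 516, 494 and 813 CPM in WT and 476, 98.7 and 155 CPM in ob/ob. The HFD difference of -1.32 ± 0.42 (adjusted p = 0.0427) was lost without any 1 of 11 libraries (adjusted p from 0.0527 to 0.136), in DESeq2 and when the 2 HFD groups were fitted alone. Without the remaining library, ob/ob mouse 1 on HFD, it was -2.26 (adjusted p = 0.000147).

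Cyp3a11 was at 7533, 6941 and 9961 CPM in WT on ND, 4141, 2675 and 4056 CPM in WT on HFD, 5841, 5892 and 6272 CPM in ob/ob on ND and 4158, 3287 and 2654 CPM in ob/ob on HFD. Both HFD groups lay below both ND groups. The change with HFD was -1.17 ± 0.20 log2 in WT (adjusted p = 0.00132), and -0.83 ± 0.19 in ob/ob did not pass (adjusted p = 0.0715). Cyp2c55, induced by both receptors, was at 8.72, 7.55 and 12.9 CPM in WT on ND, 2.71, 3.06 and 3.09 CPM in WT on HFD, 6.98, 7.37 and 7.63 CPM in ob/ob on ND and 3.51, 2.64 and 2.7 CPM in ob/ob on HFD. The diets did not overlap in either genotype. HFD changed it by -1.72 ± 0.21 in WT (adjusted p = 0.00016) and by -1.31 ± 0.20 in ob/ob (adjusted p = 0.0133).

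**Figure D2:**
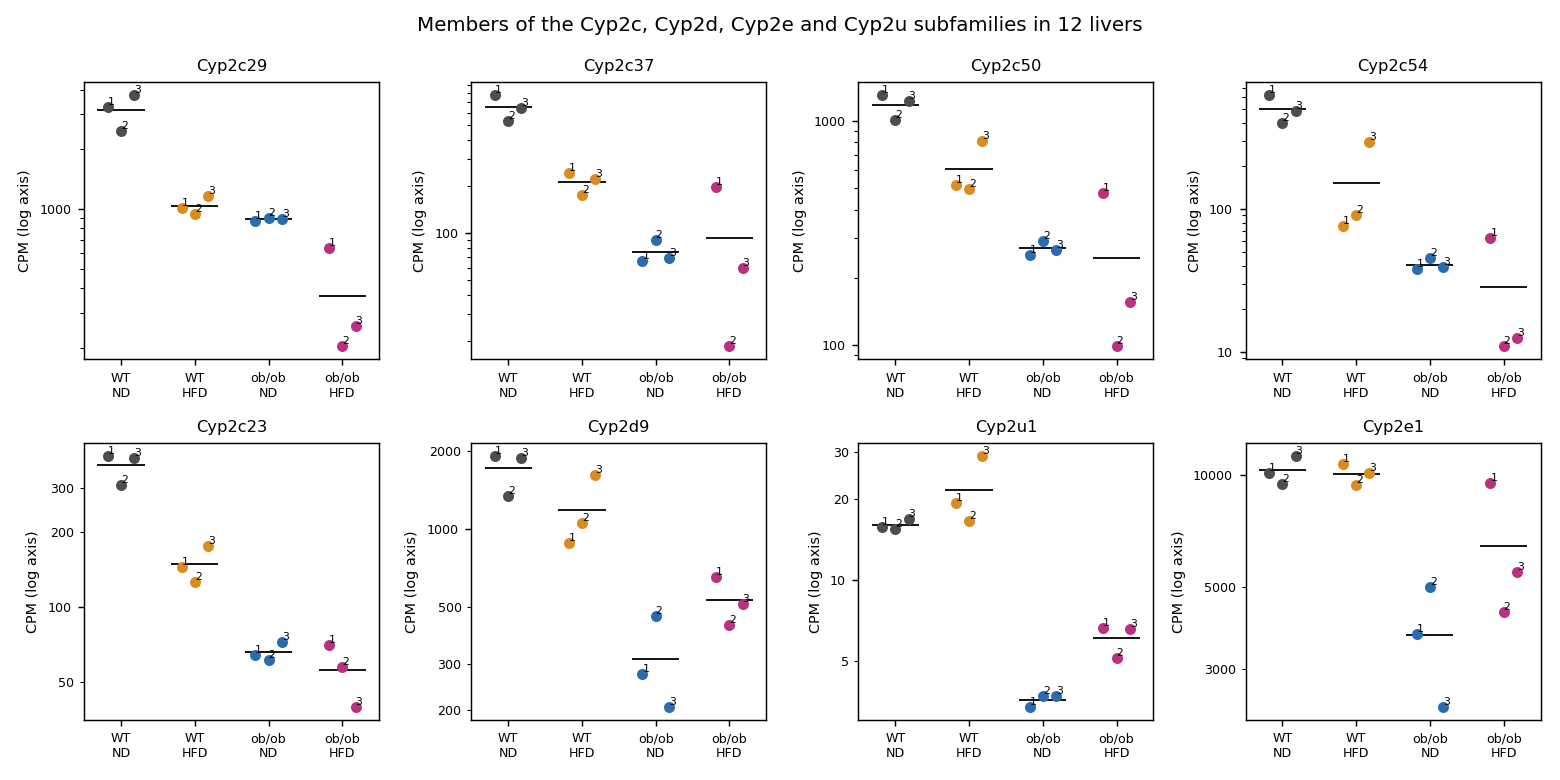
Liver levels of 8 members (y axis: CPM, log axis) in the 4 groups (x axis). Each point is a mouse with its number, 3 per group, and lines are group means. All 8 are lower in ob/ob than in WT on ND, and in ob/ob on HFD mouse 1 lies above mice 2 and 3, for Cyp2c29 at 635 against 203 and 259 CPM.

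Among the 10 listed epoxygenases and hydroxylases of arachidonic acid, 2 were higher and 5 lower in ob/ob on ND, 1 was higher and 6 lower on HFD, and HFD raised 1 and lowered 5 in WT and lowered 1 in ob/ob. The list is not complete: Cyp2c40, described above, is not on it. Of all tested genes, 19.3% were higher and 17.1% lower on ND, and 8.61% and 9.85% on HFD. HFD raised 12% and lowered 9.87% of them in WT, and lowered 0.536% in ob/ob. Cyp2c23, for which RefSeq also gives the name Cyp2c44, was at 405, 309.9 and 396 CPM in WT on ND and 145, 126 and 175 CPM in WT on HFD. It was at 64.2, 61.2 and 72.3 CPM in ob/ob on ND and 70.5, 57.6 and 39.6 CPM in ob/ob on HFD. WT on ND, WT on HFD and the ob/ob groups formed 3 separate levels. The genotypes differed by -2.49 ± 0.19 log2 on ND (5.62-fold lower, adjusted p = 1.28e-06) and by -1.41 ± 0.18 on HFD (adjusted p = 0.000331), and HFD in WT changed it by -1.32 ± 0.18 (adjusted p = 0.000384).

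Cyp2j5, an epoxygenase of liver and kidney, was at 1040, 939 and 924 CPM in WT on ND, 854, 784 and 923 CPM in WT on HFD, 569, 543 and 542 CPM in ob/ob on ND and 424, 346 and 453 CPM in ob/ob on HFD. All WT livers lay above all ob/ob livers. The difference was -0.81 ± 0.11 log2 on ND (adjusted p = 9.38e-05) and -1.07 ± 0.11 on HFD (adjusted p = 8.33e-05). Cyp2j6 differed on HFD only by the test, at -0.51 ± 0.11 (adjusted p = 0.00815), with -0.23 ± 0.11 on ND (adjusted p = 0.132). Cyp2j9 was at 7.26, 7.9 and 9.6 CPM in WT on ND and 4.4, 2.24 and 3.77 CPM in WT on HFD, a change of -1.25 ± 0.25 (adjusted p = 0.00408). In ob/ob on HFD it was at 10.8, 6.4 and 8.32 CPM, 1.29 ± 0.25 above WT (adjusted p = 0.00316).

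Cyp2c39, which also hydroxylates retinoic acid, was at 3.28, 2.78 and 3.9 CPM in WT on ND, 7.69, 7.4 and 5.02 CPM in WT on HFD, 17, 14.7 and 10.3 CPM in ob/ob on ND and 12.1, 6.54 and 7.87 CPM in ob/ob on HFD. WT livers on ND were the lowest. It was 2.08 ± 0.27 log2 higher in ob/ob on ND (adjusted p = 6.65e-05). The rise with HFD in WT, 1.03 ± 0.28 (adjusted p = 0.0202), was lost without WT mouse 1 or 2 of either diet (adjusted p from 0.0627 to 0.0734). Cyp2c38 was 0.89 ± 0.23 higher in ob/ob on ND (adjusted p = 0.00879).

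Cyp2e1 was at 10126, 9485 and 11289.9 CPM in WT on ND, 10709, 9422 and 10165 CPM in WT on HFD, 3739, 4994 and 2367 CPM in ob/ob on ND and 9542, 4272 and 5466 CPM in ob/ob on HFD. The ob/ob livers on ND lay below all WT livers, and ob/ob mouse 1 on HFD was within the WT range. The genotype difference was -1.48 ± 0.28 log2 on ND (adjusted p = 0.00117), and -0.65 ± 0.27 on HFD did not pass (adjusted p = 0.117). For HFD in WT, -0.03 ± 0.27 did not pass either (adjusted p = 0.953), with a 95% interval of -0.56 to 0.51. Cyp2e1 made up 29.6% to 32.2% of member counts in WT on ND, 39.6% to 44.6% in WT on HFD, 13.7% to 25.4% in ob/ob on ND and 32.5% to 42.6% in ob/ob on HFD.

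Cyp2r1, the vitamin D hydroxylase of the liver, was at 22.6, 16.6 and 17.7 CPM in WT on ND, 9.09, 8.82 and 7.73 CPM in WT on HFD, 11.5, 8.99 and 13.6 CPM in ob/ob on ND and 11.4, 8.55 and 14.1 CPM in ob/ob on HFD. WT livers on ND lay above all others. HFD changed it by -1.14 ± 0.19 log2 in WT (adjusted p = 0.00145), and the genotypes differed by -0.74 ± 0.19 on ND (adjusted p = 0.00795). In ob/ob the diets differed by -0.00 ± 0.19 (adjusted p = 0.996). Cyp2f2, an enzyme of periportal hepatocytes, was at 1089, 838 and 842 CPM in WT on ND, 651, 673 and 724 CPM in WT on HFD, 565, 747 and 756 CPM in ob/ob on ND and 383, 425 and 431 CPM in ob/ob on HFD. The ob/ob livers on HFD were below all others. It passed in all 4 comparisons, with -0.42, -0.73, -0.44 and -0.74 log2 in the order genotype on ND, genotype on HFD, HFD in WT, HFD in ob/ob. It kept only the call on HFD under every alternative. The call on ND was lost without WT or ob/ob mouse 1 on ND (adjusted p from 0.102 to 0.121), that in WT without mouse 1 or 2 on HFD or mouse 1 on ND (0.0806 to 0.143), and that in ob/ob without mouse 2 on HFD or mouse 2 or 3 on ND (0.0556 to 0.0854) and when the 2 ob/ob groups were fitted alone.

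Between the genotypes on HFD 5 members were higher in ob/ob: Cyp2a4 and Cyp2j9, described above, Cyp3a57, Cyp2c68 and Cyp3a13. Cyp3a57 was low in all livers, at 0, 0 and 0.095 CPM in WT on ND, 0.293, 0.224 and 0.387 CPM in WT on HFD, 0.441, 0.351 and 0.428 CPM in ob/ob on ND and 0.97, 1.25 and 1.2 CPM in ob/ob on HFD. The genotypes did not overlap on either diet. On HFD it was 1.91 ± 0.41 log2 higher in ob/ob (adjusted p = 0.00669), a call kept under every alternative. However, Cyp3a57 passed the filter on low counts only through the ob/ob livers on HFD, which held 47 counts together. The test between genotypes on HFD was therefore not independent of that filter. On ND the 17 counts in ob/ob against 1 in WT correspond to a ratio of 13.7, with an exact 95% interval of 2.14 to 571 for counting error only, and the difference passed (adjusted p = 0.00351). The rise with HFD in WT, 11 counts against 1 (ratio 9.89, interval 1.44 to 426, adjusted p = 0.0216), was lost without any 1 of 4 WT livers (adjusted p from 0.0512 to 0.1), in DESeq2 and without the filter on low counts.

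Cyp2c68 was at 305, 226 and 251 CPM in WT on ND, 133, 105 and 110.2 CPM in WT on HFD, 246, 220 and 207 CPM in ob/ob on ND and 229.8, 175 and 197 CPM in ob/ob on HFD. WT livers on HFD were alone at the low level. HFD changed it by -1.17 ± 0.14 log2 in WT (adjusted p = 0.000128) and by -0.16 ± 0.13 in ob/ob (adjusted p = 0.64), and on HFD it was 0.79 ± 0.14 higher in ob/ob (adjusted p = 0.0016). Cyp3a13 was 0.42 ± 0.13 higher (adjusted p = 0.0393), a call lost without any 1 of 8 libraries (adjusted p from 0.0511 to 0.14) and when the 2 HFD groups were fitted alone. Among members of high level, Cyp2d26 was at 616 to 1024 CPM over the 12 livers and passed in none of the 4 comparisons. Cyp2d10 differed by -0.64 ± 0.12 on ND (adjusted p = 0.00138), and Cyp3a25 changed by -0.51 ± 0.13 with HFD in WT (adjusted p = 0.0156), lost without WT mouse 3 on ND or mouse 2 on HFD (adjusted p from 0.0651 to 0.0666).

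The genotype comparisons on the 2 diets share no library. Of the 22 members called on ND and the 17 called on HFD, 11 were called in both, which is 50% and 64.7% of them, and all 11 had the same direction, 2 higher (Cyp2a4 and Cyp3a57) and 9 lower. As said above, Cyp3a57 passed the filter only through the ob/ob livers on HFD. Over all tested genes, 34.6% of those called on ND and 68.1% of those called on HFD were called in both, 97.1% of these with the same direction. For diet, 22 members were called in WT and 5 in ob/ob, and 4 in both (18.2% and 80%, beside 2.56% and 61.2% over all tested genes). These 4, Cyp2c40, Cyp2c55, Cyp2c69 and Cyp2f2, were lower on HFD in both genotypes. As said above, Cyp2c69 passed the filter only through livers on ND. The difference between the diet effects in ob/ob and in WT passed for 10 members, 4 with a positive and 6 with a negative value, beside 2.2% and 3.96% of all genes. Cyp2b9 is an example: HFD changed it by 6.36 ± 0.81 log2 in WT and by -0.61 ± 0.58 in ob/ob, and the difference of -6.97 ± 0.99 passed (adjusted p = 0.00155). For Cyp2c68 the difference was 1.01 ± 0.19 (adjusted p = 0.00836).

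The groups compared did not overlap for 22 of 22 called members between genotypes on ND, 16 of 17 on HFD, 22 of 22 for HFD in WT and 5 of 5 for HFD in ob/ob. Of all genes called in these comparisons 98.2%, 97.2%, 98.5% and 100% did not overlap either. Calls were kept under every alternative for 20, 12, 14 and 1 of these members. For HFD in ob/ob, the 5 members lowered were 8 without mouse 1 on HFD, 2 without mouse 2 on HFD, 2 without mouse 3 on ND and 3 without mouse 1 on ND, and 1, Cyp2c55, when the 2 ob/ob groups were fitted alone. The 0 members raised there were 1 without WT mouse 3 on HFD. The 6 members raised by HFD in WT were 3 without WT mouse 1 on HFD, mouse 1 on ND or mouse 2 on ND.

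By cluster, 2 of the 13 tested Cyp2c genes were higher and 6 lower in ob/ob on ND, and HFD in WT raised 1 and lowered 9. In the Cyp2d cluster 3 of 7 were lower on ND, 3 on HFD and none higher. The shares of all tested genes were 19.3% higher and 17.1% lower on ND, and 8.61% and 9.85% on HFD. For HFD in WT they were 12% and 9.87%. Along chromosome 7, the members that rose were not 1 unbroken run: Cyp2b13, Cyp2b9 and Cyp2a4 followed each other, and Cyp2a22 came after Cyp2g1 and Cyp2a5, which did not pass.

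**Figure D3:**
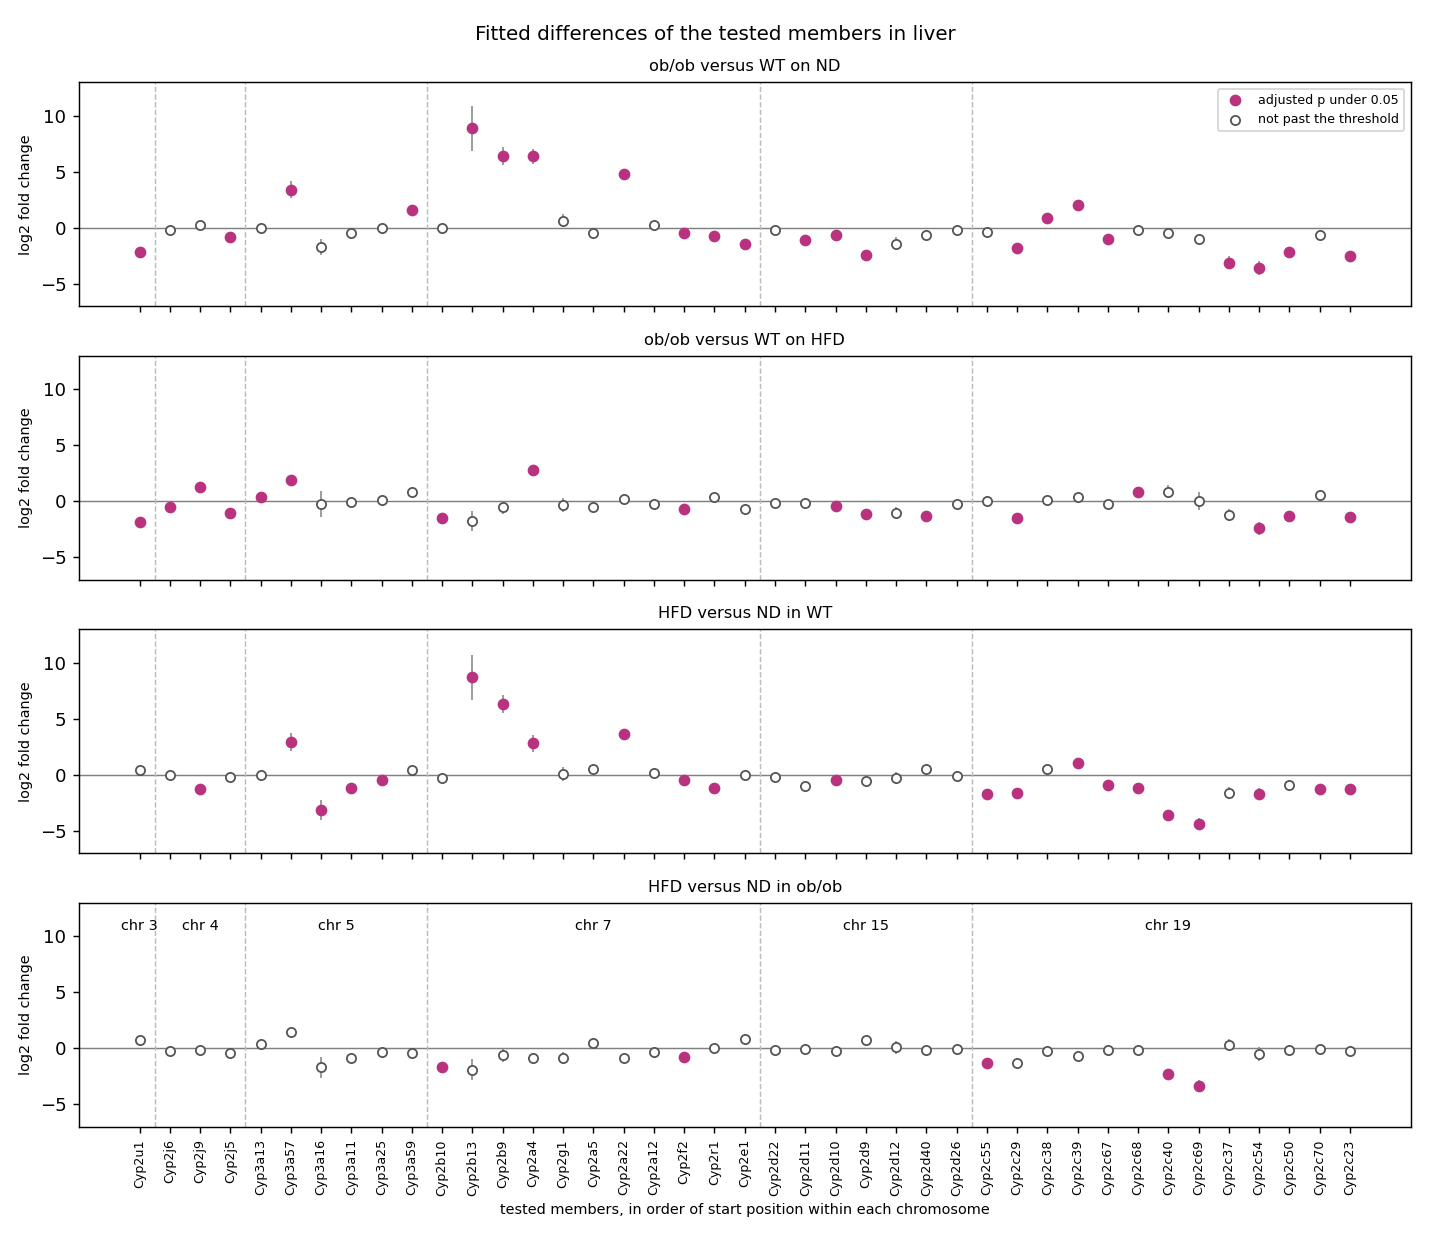
Fitted log2 fold changes (y axis) of the 41 members tested in liver (x axis, in order of position within each chromosome) for 4 comparisons, with bars for ± SE. Filled points passed the adjusted p of 0.05. Cyp2b13, Cyp2b9, Cyp2a4 and Cyp2a22 on chromosome 7 are high for genotype on ND and for HFD in WT, up to 8.88 log2, and 5 members pass in the last panel.

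Genes that serve the P450 enzymes were counted from lists chosen by function. Of 6 electron partners, 2 were higher and 2 lower in ob/ob on ND, 1 was higher and 1 lower on HFD, and none passed for diet. Por, the P450 oxidoreductase, was at 542 ± 196 CPM in ob/ob and 287 ± 12.2 CPM in WT on HFD (0.92 ± 0.20 log2, adjusted p = 0.00654). Of 9 genes of haem supply, 1 was higher and 4 lower on ND, 2 were lower on HFD, and HFD raised 1 in WT. Of 20 regulators, 5 were higher and 9 lower on ND, 5 higher and 4 lower on HFD, HFD lowered 2 in WT and raised 1 in ob/ob, and the other 6 did not pass on ND. Of all tested genes, 19.3% were higher and 17.1% lower on ND, and 8.61% and 9.85% on HFD. HFD raised 12% and lowered 9.87% of them in WT, and 0.377% and 0.536% in ob/ob.

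Nr1i3, which encodes CAR, was at 65.4 ± 3.5 CPM in WT and 23.6 ± 6.97 CPM in ob/ob on ND (-1.47 ± 0.23 log2, adjusted p = 0.000325), and at 77.4 ± 5.11 and 27.8 ± 10.3 CPM on HFD (-1.48 ± 0.23, adjusted p = 0.000947). Of the other regulators, those that act in growth hormone signalling are given here, a choice made after their values were seen. The remaining regulators, among them the PXR gene Nr1i2, are not given singly. Cux2, Bcl6, Stat5a, Stat5b and Socs2 are given for ND only. Cux2, a female-predominant repressor, was at 0.118 ± 0.132 CPM in WT and 3.58 ± 1.68 CPM in ob/ob on ND (4.80 ± 0.99, adjusted p = 0.00221), and Bcl6, a male-predominant repressor, at 36 ± 29.7 and 9.32 ± 1.01 CPM (-1.95 ± 0.57, adjusted p = 0.0164). The WT level of Cux2 was very low, with an SD above its mean, so the size of its fitted difference is uncertain. Ghr, the growth hormone receptor, differed by -0.82 ± 0.10 on ND (adjusted p = 4.56e-05) and by -0.70 ± 0.10 on HFD (adjusted p = 0.000552). On ND Stat5a differed by 0.63 ± 0.14 (adjusted p = 0.00316), and Stat5b at -0.16 ± 0.10 (adjusted p = 0.225) and Socs2 at 0.02 ± 0.40 (adjusted p = 0.97) did not pass. The part of these genes in the results on the members was not tested.

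Outside the liver, 23 members reached 1 CPM in at least 3 of the 12 libraries of some tissue, and Cyp2d22, Cyp2j6, Cyp2j9 and Cyp2u1 did so in all 6. Cyp2j12, Cyp2s1 and Cyp2t4 reached it elsewhere and not in liver, and 12 members reached it in none of the 7 tissues. In 14 of the 24 comparisons in these tissues edgeR called 0 members. Of the 127 tests of members in those 14, 13 had an unadjusted p under 0.05, and DESeq2 made 1 call.

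In epididymal fat 19 members were tested. HFD in WT lowered 17 of them, where 58.9% of all tested genes changed in either direction. Of the members lowered, Cyp2a12, Cyp2a5, Cyp2c29, Cyp2d10, Cyp2d26, Cyp2d9, Cyp2f2, Cyp2j5 and Cyp3a25 were under 1 CPM in all WT fat on HFD. They were included only through groups where they were higher, so their tests of HFD in WT were not independent of that inclusion. Between genotypes, 3 members were lower in ob/ob on ND (48.2% of all genes changed) and 2 higher on HFD (17.6%), and for HFD in ob/ob no member passed (0%). The call of Cyp3a25 on ND was lost without WT mouse 2 or any 1 ob/ob mouse on ND (adjusted p from 0.0612 to 0.182). That of Cyp2j6 on HFD was lost without any 1 of 10 libraries (adjusted p from 0.0518 to 0.167), in DESeq2, with its size factors and without the filter on low counts. Cyp2e1, the member with the highest level per length in this tissue at 226 CPM per kb over all libraries, was at 2162, 1612 and 1647 CPM in WT on ND and 10.04, 44.7 and 48 CPM in WT on HFD. It was at 35.8, 113 and 58.2 CPM in ob/ob on ND and 63, 46.9 and 23.2 CPM in ob/ob on HFD. The 3 WT mice on ND stood above all 9 others. HFD in WT changed it by -5.72 ± 0.67 log2 (adjusted p = 3.75e-05), and the genotypes differed by -4.71 ± 0.63 on ND (adjusted p = 0.000147). The 6 adipocyte markers summed to 32794 to 41994 CPM in WT on ND, 3497 to 10271 in WT on HFD, 11558 to 16178 in ob/ob on ND and 12926 to 16816 in ob/ob on HFD, none of them at 0. The 8 macrophage markers summed to 418 to 428, 2387 to 2709, 1539 to 2089.8 and 1747 to 2104 CPM, and the 10 hepatocyte markers to 3303 to 6189, 87.6 to 346, 312 to 385 and 188 to 469.9 CPM, in the same order and with none at 0. WT fat on ND had the highest adipocyte and hepatocyte sums and the lowest macrophage sums. Of the hepatocyte list, Alb was at 29 to 1394 CPM and Apoa1 at 0.659 to 136 CPM in these WT libraries on ND. Much of the hepatocyte sum there thus came from other genes of the list. The part of these marker sums in the result was not tested.

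Several members lowered by HFD in WT fat moved with the liver gene Alb, which encodes albumin. Alb was at 211, 1394 and 29 CPM in fat of WT mice 1 to 3 on ND and 7.74, 28.5 and 6.11 CPM in WT on HFD. In the same libraries Cyp3a11 was at 5.51, 62.4 and 1.03 CPM and 0.536, 2.22 and 0.575 CPM. WT mouse 2 on ND was the highest for both genes. The change of Cyp3a11 with HFD, -4.35 ± 1.54 log2 (adjusted p = 0.0298), was -1.51 without that mouse (adjusted p = 0.358). That of Cyp2c29, -4.93, was -1.21 (adjusted p = 0.536), and that of Cyp2j5, -3.77, was -1.17 (adjusted p = 0.515). Without that mouse the calls of Cyp2a12, Cyp2a5, Cyp2c23, Cyp2d10, Cyp2d26 and Cyp2d9 were lost as well.

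The other 8 of the 17 members kept their call without WT mouse 2 on ND. Cyp2f2 was at 5.91, 22.8 and 2.2 CPM in WT on ND and 0.306, 0.716 and 0.144 CPM in WT on HFD, and on ND its order among the mice was that of Alb. It changed by -4.69 ± 1.0 log2 (adjusted p = 0.00207) and by -3.32 without WT mouse 2 on ND (adjusted p = 0.00811), or by -5.44 without WT mouse 2 on HFD. Cyp2d22 was at 55.8, 58.4 and 63 CPM in WT on ND and 12, 16.8 and 26.8 CPM in WT on HFD, with no overlap (-1.67 ± 0.27, adjusted p = 0.000315). Cyp2j6 was at 38, 36.6 and 33.4 CPM and 20.8, 21 and 21.9 CPM (-0.76 ± 0.10, adjusted p = 9.64e-05). On HFD Cyp2d22 was 1.09 ± 0.27 higher in ob/ob (adjusted p = 0.022), which was lost without WT mouse 1 or 2, or ob/ob mouse 1 or 3, on HFD (adjusted p from 0.0522 to 0.0975).

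In aorta 9 members were tested. Between genotypes 5 passed on ND, 2 higher and 3 lower (31.7% of all genes changed), and 2 on HFD, 1 in each direction (16.2%). HFD in WT raised 1 and lowered 3 (4.21%), and in ob/ob none passed (0%). Cyp2e1, again the highest per length at 110.3 CPM per kb, was at 683, 614 and 839 CPM in WT on ND and 102, 85.8 and 92.8 CPM in WT on HFD. In ob/ob it was at 61.5, 71.3 and 59 CPM on ND and 68.2, 126 and 54.1 CPM on HFD. WT aortas on ND were above all others, as in fat. The genotypes differed by -3.48 ± 0.27 log2 on ND (adjusted p = 6.18e-06), and HFD in WT changed it by -2.93 ± 0.26 (adjusted p = 9.78e-05). The aortas contained fat transcripts: the 6 adipocyte markers summed to 19432 to 28258 CPM in WT on ND, 19057 to 19568 in WT on HFD, 14811 to 18032 in ob/ob on ND and 16331 to 18579 in ob/ob on HFD, none of them at 0. The brown-fat gene Ucp1 was at 7523 to 11699.6 CPM in WT and 3589 to 6772 CPM in ob/ob. The part of the fat transcripts in the result was not tested.

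Cyp2b10 in aorta was at 40.9, 28.2 and 19.1 CPM in WT on ND, 8.3, 11.3 and 23.4 CPM in WT on HFD, 56.9, 78.6 and 82.4 CPM in ob/ob on ND and 109, 187 and 84.1 CPM in ob/ob on HFD. All 6 ob/ob aortas lay above all 6 WT aortas, whereas in liver the ob/ob mice on HFD were the lowest. The difference between the tissues was not tested. The genotype difference was 1.31 ± 0.38 log2 on ND (adjusted p = 0.0203), lost without WT mouse 3 or ob/ob mouse 2 or 3 on ND (adjusted p from 0.0562 to 0.0816), and 3.14 ± 0.41 on HFD (adjusted p = 0.000664). Cyp2f2 differed by -3.19 ± 0.32 on ND (adjusted p = 3.32e-05) and Cyp2s1, an epithelial member, by -2.33 ± 0.43 (adjusted p = 0.0021).

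In skeletal muscle 8 members were tested, and 4 were higher in ob/ob on ND, where 45% of all genes changed. None passed for genotype on HFD (0.0194% of all genes), HFD in WT (0%) or HFD in ob/ob (0%). Cyp2j6 was at 4.63, 8.24 and 6.23 CPM in WT on ND and 23.1, 16.7 and 24.6 CPM in ob/ob on ND, with no overlap (1.75 ± 0.39 log2, adjusted p = 0.00691). Cyp2d22 was at 17, 19.1 and 18.3 CPM and 37.3, 37.2 and 33 CPM (0.98 ± 0.17, adjusted p = 0.00332). Cyp2r1 was at 0, 0.0886 and 0.26 CPM and 2.24, 1.04 and 2.59 CPM (4.01 ± 0.88, adjusted p = 0.00656), or 5.27 without WT mouse 3. It had 4 counts in these WT muscles together and 113 in these ob/ob muscles. Only ob/ob muscles reached 1 CPM, so Cyp2r1 was included here through the genotype where it was high. The 6 adipocyte markers summed to 497 to 2608 CPM in these WT muscles and 10318 to 13888 CPM in the ob/ob muscles, and the muscle gene Acta1 was at 20417 to 45093 and 7358 to 12209 CPM. Their part in the result was not tested.

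In heart 8 members were tested. Between genotypes 1 passed on ND (12.7% of all genes) and 2 on HFD (17.2%), and none passed for HFD in WT (0.256%) or ob/ob (0.0219%). Cyp2d22 had the highest level per length at 8.91 CPM per kb, followed by Cyp2j6 at 2.35. Cyp2d22 was at 17.6, 20.2 and 14.8 CPM in WT on ND, 32.6, 23.1 and 33.9 CPM in ob/ob on ND, 18.3, 23.3 and 21.7 CPM in WT on HFD and 35.5, 29.6 and 25.5 CPM in ob/ob on HFD. The genotypes did not overlap on either diet. The difference was 0.77 ± 0.16 log2 on ND (adjusted p = 0.00406) and 0.52 ± 0.15 on HFD (adjusted p = 0.0278), the latter lost without WT mouse 1 or 3 or ob/ob mouse 1 or 2 on HFD (adjusted p from 0.0549 to 0.125). Cyp2e1 was at 6.7, 2.15 and 0.188 CPM in WT and 0.342, 0.0861 and 0.18 CPM in ob/ob on HFD. Its difference of -3.84 ± 1.06 (adjusted p = 0.0211) was -2.52 without WT mouse 1 (adjusted p = 0.156), and the call was also lost without ob/ob mouse 2 or 3.

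In the brain regions few differences passed. In hippocampus none of 8 tested members passed between genotypes on ND (3.48% of all genes) or HFD (1.56%), or for HFD in WT (0%) or ob/ob (0%). In hypothalamus 9 were tested, and none passed on ND (5.3%), for HFD in WT (0%) or for HFD in ob/ob (0%). On HFD 1 passed (2.13% of all genes): Cyp2d22 was 0.39 ± 0.09 log2 higher in ob/ob hypothalamus (adjusted p = 0.0496), lost without any 1 of 10 of the 12 libraries (adjusted p from 0.0628 to 0.229), with DESeq2's size factors and without the filter on low counts. The highest levels per length were those of Cyp2j9 (16), Cyp2d22 (13.6) and Cyp2j6 (11.9 CPM per kb) in hypothalamus, and of Cyp2d22 (13.4), Cyp2j9 (9.38) and Cyp2j6 (9.12 CPM per kb) in hippocampus. Cyp2j12 had 999 counts in hippocampus and 752 in hypothalamus, and 0 in liver.

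**Figure D4:**
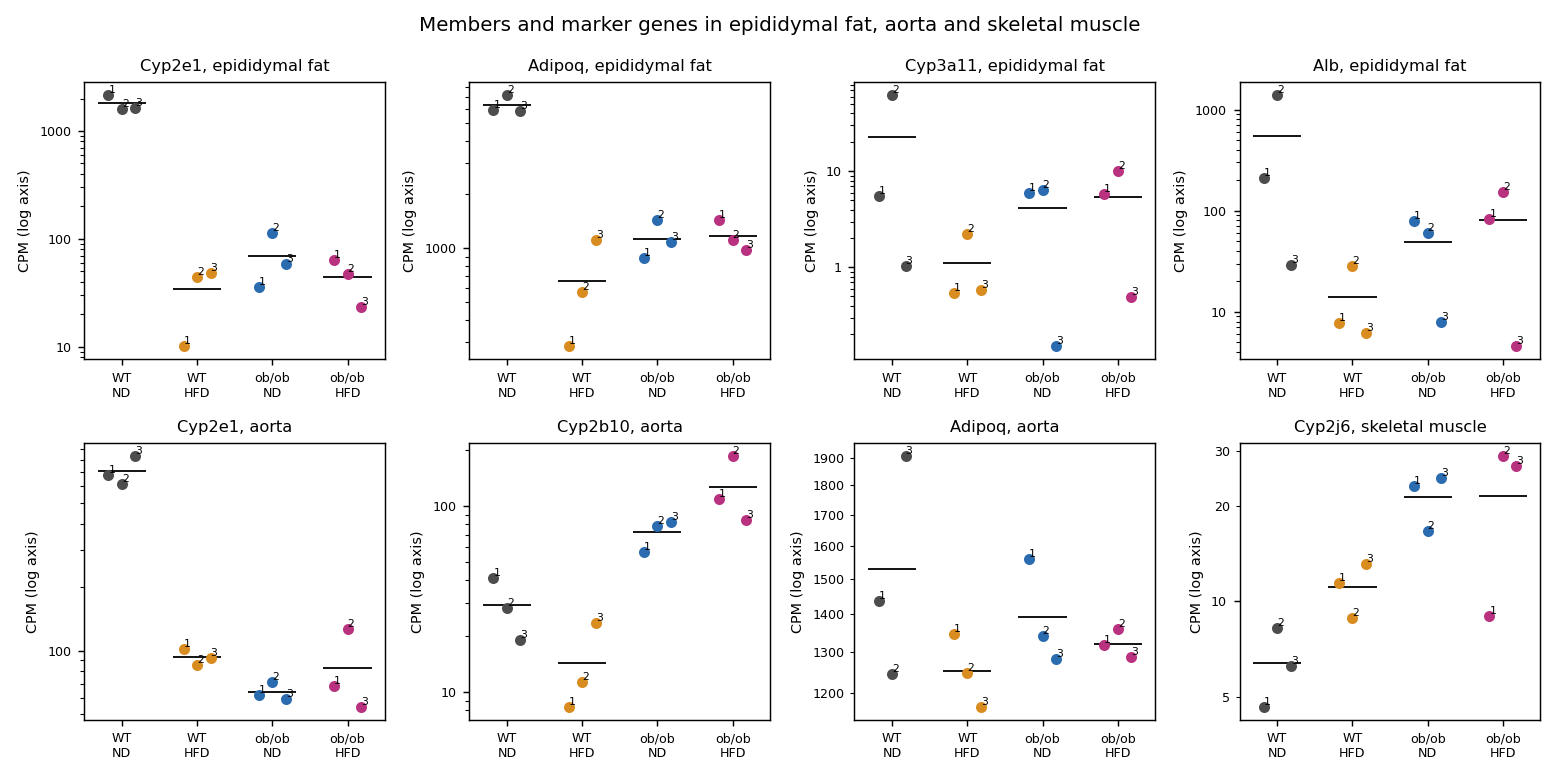
Members and marker genes outside the liver (y axis: CPM, log axis) in the 4 groups (x axis). Each point is a mouse with its number, 3 per group, and lines are group means. Cyp2e1 is highest in WT on ND in fat (1612 to 2162 CPM) and aorta (614 to 839 CPM), Cyp3a11 and Alb in fat are both highest in WT mouse 2 on ND, and Cyp2b10 in aorta is higher in ob/ob.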

How the data were processed

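Gene counts of 84 libraries were used as deposited by the authors, with 1 column per library matched to the sample titles. Per the file headers, reads were counted over exons by gene with featureCounts 1.5.1 on a GRCm38 annotation, paired, without the options for strand or for reads with several placements. Per the submitters' processing notes, Trimmomatic 0.36, HISAT2 2.0.5 and featureCounts 1.5.0-p2 were used. The labels' protocols name TRIzol extraction and an Illumina TruSeq kit, in the same text for all tissues.

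Fits were made within a tissue with edgeR 4.0.16 (TMM scaling, filterByExpr with a smallest count of 10 and a total of 15, 4 group means), and p-values were adjusted by Benjamini-Hochberg over all genes tested in the tissue. CPM values are counts scaled to the TMM-adjusted library size, and CPM per kb divides by exon length. Outside the liver, members with 1 CPM in 3 libraries were used. DESeq2 1.42.0, its size factors, no filter, a mouse-number block, each library left out and, in liver, the 2 groups alone were the alternatives. Library totals ranged over 10499528 to 17040790 counts. On simulated liver data (13246 genes, ob/ob versus WT on ND), 66% of 2-fold and 90.7% of 4-fold changes were recovered and 6.6% of calls were false. Far fewer genes were changed in the simulation than the 4816 called in the real comparison, so these shares may not hold for it. Mouse numbers do not pair samples: 18 correlations of deviations between same-numbered livers ranged from -0.22 to 0.21.

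Members, lists and tests were chosen with earlier results of these data known. Named are the 8 members highest per kb in WT livers on ND, up to 5 highest and 5 lowest called members per liver comparison with an average log2 CPM of at least 0, list members, and leading members of other tissues. Cyp2a5, Cyp2g1, Cyp2a12, Cyp3a57 and others that are mentioned outside this rule were chosen after their values were seen. Promoters are from RefSeq (GRCm38.p6), and shared 50-base stretches were counted in annotated transcripts.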

Additional observations from a re-analysis of the deposited data

Results flagged for a closer look

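For 10 members the effect of HFD in liver differed between ob/ob and WT mice, by a test of the difference itself (edgeR, adjusted p under 0.05). Values are the log2 change with HFD in ob/ob minus that in WT. A group of 6 had a lower value in ob/ob: Cyp2b13 at -10.63 ± 2.24 (adjusted p = 0.0142), Cyp2b9 at -6.97 ± 0.99 (adjusted p = 0.00155), Cyp2a22 at -4.60 ± 0.56 (adjusted p = 0.000552), Cyp2a4 at -3.65 ± 0.89 (adjusted p = 0.0286), Cyp2c39 at -1.69 ± 0.37 (adjusted p = 0.0165) and Cyp2b10 at -1.46 ± 0.37 (adjusted p = 0.034). All but Cyp2b10 were lowest in WT livers on ND. The fitted value of Cyp2b13 rests on 2 counts in WT on ND and is no bound: it was -9.02 without WT mouse 1 on HFD, -11.73 without ob/ob mouse 1 on HFD, -10.04 without mouse 2 of that group, and -9.70 if ob/ob mouse 3 on ND was left out.

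The other 4 had a higher value in ob/ob: Cyp2c67 at 0.73 ± 0.17 (adjusted p = 0.0244), Cyp2c68 at 1.01 ± 0.19 (adjusted p = 0.00836), Cyp2c23 at 1.08 ± 0.26 (adjusted p = 0.0255) and Cyp2r1 at 1.14 ± 0.27 (adjusted p = 0.0259). All 4 fell with HFD in WT and did not pass in ob/ob. The calls of Cyp2b9, Cyp2b13, Cyp2a22 and Cyp2c68 were kept without any 1 library.

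The other 6 differences were lost without some single library. Cyp2c39 was lost without WT mouse 1 on HFD (adjusted p of 0.0503). Cyp2a4 was lost without WT mouse 1 on HFD, where it was -2.81, WT mouse 1 or 2 on ND, or ob/ob mouse 3 on ND (0.0538 to 0.0913), and was -4.25 without ob/ob mouse 3 on HFD. Cyp2b10 (8 libraries, 0.0531 to 0.089), Cyp2c23 (7, 0.0506 to 0.0677), Cyp2c67 (5, 0.052 to 0.0668) and Cyp2r1 (5, 0.0524 to 0.0717) were lost without any 1 of the number of libraries given, at adjusted p in the range beside it.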

How the results depend on the processing

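In liver, 51 of 76 calls were kept under every alternative, 24 were lost without some single library and none was reversed. In the other tissues 19 of 41 were kept, 22 were lost without some single library and none was reversed. Without the filter on low counts, 8 members were higher in ob/ob on HFD, HFD raised 10 in WT, HFD raised 5 and lowered 16 in ob/ob, 11 diet effects were higher in ob/ob than in WT, and 1 call was made for HFD in ob/ob in the other tissues. There the adjusted p of Cyp2b10 for HFD in ob/ob was 3.81e-41, against 0.0136 with the filter. The cause was not tested. When 2 groups were fitted alone, HFD lowered 1 member in ob/ob.

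Leaving out 1 library at a time gave 8 members higher and 12 to 16 lower for genotype on ND, 4 to 6 and 8 to 15 for genotype on HFD, 3 to 6 and 11 to 18 for HFD in WT, 0 to 1 and 2 to 8 for HFD in ob/ob, and 1 to 6 and 3 to 7 for the difference between diet effects. In the other tissues it gave 9 to 20 calls for genotype on ND, 1 to 8 on HFD, 11 to 21 for HFD in WT and 0 for HFD in ob/ob.

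With the mouse number as a replicate block, the liver counts were 8 higher and 15 lower for genotype on ND, 4 and 11 on HFD, 6 and 16 for HFD in WT, 0 and 5 in ob/ob, and 4 and 6 for the difference between diet effects. The other tissues gave 19, 7, 21 and 0 calls. The calls not made with the block were those of Cyp2c54 for HFD in WT and of Cyp2d10 and Cyp3a13 for genotype on HFD in liver, and of Cyp2j6 in fat and Cyp2d22 in hypothalamus for genotype on HFD. Of the 18 correlations that checked whether the numbers pair the mice, 5 were over 0.1. DESeq2, its size factors in edgeR and the block left all 14 counts within 1.5 times. Members with few counts, such as Cyp2b13 in WT on ND, are limited by depth.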
